A study of Mus musculus with 12 samples.

Results

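The receptors of the epidermal growth factor (EGF) family and 6 of their ligands were followed across 12 kidney libraries. The genes are Egfr, Erbb2, Erbb3 and Erbb4, which encode the receptors, and Hbegf, Areg, Ereg, Tgfa, Btc and Epgn, which encode ligands. They were taken by symbol from a table of 42748 genes, in which each of the 10 symbols named 1 row. The adult mice were wild type or Ybx3 knockout, and their kidneys were either controls or had gone through renal ischemia/reperfusion injury (IRI), an interrupted and then restored blood supply. DNA-binding protein A (DbpA), the product of Ybx3, belongs to the cold shock domain proteins. Each of the 4 groups (wild-type control, wild-type IRI, knockout control and knockout IRI) held 3 libraries, and no agent or allele other than the Ybx3 deletion is named. Strain, sex, the deleted part of the gene, the cells that carry the deletion and the time after injury are not stated in the labels. Nor is it stated whether libraries came from separate animals, so that p-values measure the spread between these samples, which may be technical where libraries share an animal. Y-linked levels, given below, differed within 3 of the 4 groups.

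ERBB receptors are tyrosine kinases of the cell surface that signal in dimers, mainly through the RAS-ERK and PI3K-AKT cascades. Their ligands are made as membrane-bound precursors and are released by metalloproteinases, of which ADAM17 is the best known. Amphiregulin (Areg), transforming growth factor alpha (Tgfa) and epigen (Epgn) bind the EGF receptor, while heparin-binding EGF-like growth factor (Hbegf), betacellulin (Btc) and epiregulin (Ereg) bind the EGF receptor and the Erbb4 protein. No ligand is known for the Erbb2 protein, and the Erbb3 protein, a receptor for neuregulins, has a weak kinase and works through its partners. In the kidney, EGF receptor activity in the tubule is known for its part in regeneration after acute injury and, when it lasts, in fibrosis.

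Total counts ranged from 39074224 to 67948710 per library, and 19218 genes were abundant enough to be tested. Levels are counts scaled to a common library size (CPM), relative to library sizes scaled by TMM. Ybx3 lay between 9.28 and 18.6 CPM in the 6 knockout libraries and between 30.2 and 104.5 CPM in the 6 wild-type libraries. Kidney markers were present, with a summed level of 8 proximal tubule genes of 3768 to 15380 CPM. Several libraries stood apart. Wild-type IRI replicate 3 lay farthest from the controls on the first principal component (117.9, against 71.3 and 15.1 for replicates 1 and 2). The summed level of 5 adrenal genes reached 271.7 CPM (knockout IRI replicate 1) and 1397 CPM (replicate 2), against 5.15 to 7.49 CPM elsewhere. The summed level of 4 Y-linked genes was under 1.80 CPM in the wild-type control libraries, knockout control replicate 1 and knockout IRI replicate 3. It was 33.2 CPM in wild-type IRI replicate 2, 45.2 CPM in knockout IRI replicate 1 and 206.6 to 307.1 CPM in the other 5 libraries. No wild-type control library was high in Y-linked genes, so that IRI and Y-linked level cannot be told apart in full among the wild-type kidneys.

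The genes lie on 6 chromosomes of the mouse genome (mm10). Egfr (ENSMUSG00000020122, chr11:16752203-16918158, plus strand) and Erbb2 (ENSMUSG00000062312, chr11:98412470-98437716, plus strand) share chromosome 11. Erbb3 (ENSMUSG00000018166) lies at chr10:128567523-128589652 and Erbb4 (ENSMUSG00000062209), which spans 1076 kb, at chr1:68032186-69108059, both on the minus strand. Hbegf (ENSMUSG00000024486) lies at chr18:36504927-36515805 on the minus strand, and Tgfa (ENSMUSG00000029999) at chr6:86195223-86275719 on the plus strand. The other 4 ligand genes lie within 375.5 kb of chromosome 5, in the order Epgn (ENSMUSG00000035020, from 91027464), Ereg (ENSMUSG00000029377, from 91074622), Areg (ENSMUSG00000029378, from 91139599) and Btc (ENSMUSG00000082361, to 91402994). Exons of other genes covered at most 3.42% of the merged exons of any of the 10 genes. That share was in Ereg, with an opposite-strand gene. Merged exons ranged from 1.22 kb in Areg to 12.4 kb in Erbb4, so that levels are compared between genes only as CPM per kb of merged exons.

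Each receptor transcript was more abundant than each of the 6 ligands in every group, without overlap. The margin was not large in wild-type IRI, where Erbb2 was at 13.1 to 18.6 and Hbegf at 2.88 to 7.92 CPM per kb. By longest annotated transcript these 2 genes had means of 15.9 and 10.3 in that group. In wild-type control kidneys Erbb4 stood at 47.2 ± 6.12 CPM per kb, Erbb2 at 21.0 ± 0.82, Egfr at 20.4 ± 1.97 and Erbb3 at 16.8 ± 3.56 (mean ± SD, n = 3). The range of Erbb4 did not overlap that of the next receptor, whereas the ranges of Erbb2 and Egfr, and those of Egfr and Erbb3, overlapped. Among the ligands Btc was at 1.90 ± 0.27, Tgfa at 1.45 ± 0.084 and Hbegf at 1.33 ± 0.092 CPM per kb (n = 3). The ranges of Tgfa and Hbegf overlapped. Taking the longest annotated transcript as the length put Hbegf (2.22) and Tgfa (2.08) closer to Btc and made Hbegf the first ligand in wild-type control kidneys. It also exchanged the places of Erbb2 and Egfr. Ereg (0.014), Epgn (0.010) and Areg (0, no count in any of the 3 libraries) came last.

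The sum of the 4 receptor transcripts lay between 101.6 and 121.6 CPM per kb in all 12 libraries, while the sum of the 6 ligands ranged from 4.57 to 5.73 in control and from 6.65 to 11.95 in IRI libraries. The ligand sum leaves out Egf, which was far more abundant and went the other way. Mean Egf was 184.5 CPM per kb in wild-type control and 23.8 in wild-type IRI. In knockout it was 148.3 in control and 34.7 after IRI. Hbegf made up 28.3 ± 2.31% of the ligand sum in wild-type control (SD, n = 3) and 57.9% in wild-type IRI kidneys (41.8 to 66.3%, n = 3). In knockout kidneys the share was 35.7 ± 6.19% in control and 42.3 ± 7.82% after IRI (n = 3), and these ranges overlapped. The share of Btc went the other way in wild type, from 40.3 ± 4.36% to 15.8 ± 10.6% of a ligand sum that itself rose. The mean ligand sum was 4.7 CPM per kb in wild-type control and 10.21 in wild-type IRI. The level of Btc was below its control range in wild-type IRI replicate 3 alone, and Btc was not called. Erbb4 made up between 34.2 and 57.6% of the receptor sum in 11 libraries. In wild-type IRI replicate 3 Erbb4 was 20.2% and Erbb3 41.9%.

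**Figure D1:**
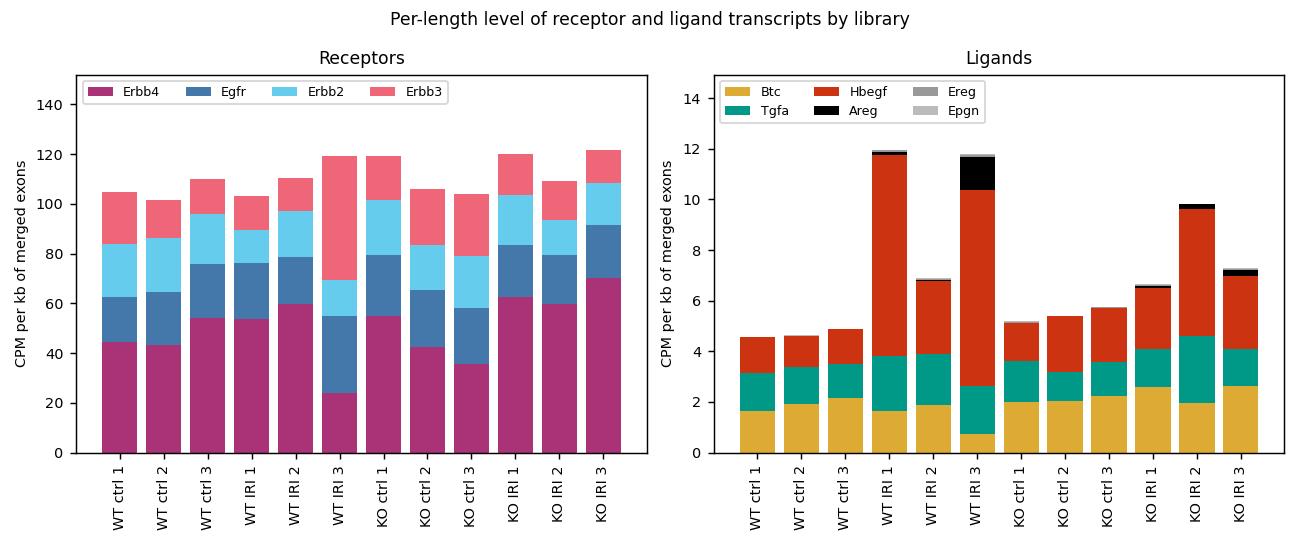
Stacked bars give the level of each receptor (left) and ligand (right) transcript in CPM per kb of merged exons, 1 bar per library (WT, wild type; KO, knockout; ctrl, control). The receptor sum stays between 101.6 and 121.6 in every library, and WT IRI 3 has a receptor mix of its own. The 6-ligand sum, without Egf, is higher in each IRI library (6.65 to 11.95) than in each control library (4.57 to 5.73).

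After IRI in wild-type kidneys 2 of the 9 tested genes were called higher and none lower (edgeR's quasi-likelihood test, p adjusted over all genes by Benjamini-Hochberg, threshold 0.05). The called genes were Hbegf and Areg. Areg was among the tested genes only because of its IRI libraries, so that its direction was largely set by the filter. Over all genes 13.1% were called higher and 9.41% lower, so that 2 of 9 is close to the background. The median log2 fold change of the 9 genes was 0.49, against 0.021 over all genes tested, and was the same with Areg at its lower bound. In knockout kidneys edgeR called 0 of the 9, where 6.32% of all genes were called (3.9% higher and 2.42% lower), and neither DESeq2 nor limma-voom called any. At an unadjusted p under 0.05 there were 2, again Hbegf and Areg, where 22.9% of all genes had such a p. Epgn, with 0 to 5 counts in any library, did not pass the filter and was not tested.

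Hbegf, whose product is an EGF receptor and Erbb4 ligand known to be induced in injured tubules, was higher in each of the 6 IRI libraries than in each of the 6 control libraries. In wild type it stood at 6.82, 5.95 and 6.52 CPM in control replicates 1 to 3 and at 38.3, 13.9 and 37.4 CPM after IRI. In knockout it stood at 7.21, 10.7 and 10.4 CPM in control and at 11.7, 24.3 and 13.9 CPM after IRI. The wild-type IRI libraries split into replicates 1 and 3, which were alike, and replicate 2, which was at the level of the knockout IRI libraries. Over all tested genes 9.64% were higher without overlap in the 6 IRI libraries than in the 6 control libraries, and 7.06% were lower. The rise in wild type was 2.21 on the log2 scale (SE 0.38, edgeR adjusted p = 0.00467). Its adjusted p over 24 alternative settings ran from 2.46e-07 to 0.0992, and the call ended only with a covariate for the Y-linked sum (1.49 on the log2 scale). In knockout the log2 fold change was 0.82 (SE 0.36, edgeR adjusted p = 0.207), and 0.42 without knockout IRI replicate 2 (edgeR adjusted p = 0.679, within a range of 0.030 to 0.762 over the settings).

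Hbegf and the injury markers Havcr1 and Lcn2 were high in the same IRI libraries. Havcr1, which encodes kidney injury molecule 1, was at 768.8, 358.2 and 720.0 CPM in wild-type IRI replicates 1 to 3 and at 234.4, 463.1 and 204.4 CPM in knockout IRI. Lcn2, which encodes neutrophil gelatinase-associated lipocalin, was at 236.7, 84.8 and 298.8 CPM in wild-type IRI and at 42.3, 95.5 and 64.3 CPM in knockout IRI. Replicates 1 and 3 were the high ones of wild-type IRI for all of Hbegf, Havcr1 and Lcn2, and replicate 2 was the high one of knockout IRI. The summed level of 6 neutrophil genes moved with them, at 20.5, 4.92 and 22.2 CPM in wild-type IRI and 4.04, 6.46 and 5.05 CPM in knockout IRI, against 0.81 to 1.20 CPM in control libraries, where up to 3 of the 6 were at 0. Replicates 1 and 3 of wild-type IRI and replicate 2 of knockout IRI also had the highest Y-linked sums of the IRI libraries. These sums were 206.6, 33.2 and 307.1 CPM in wild-type IRI and 45.2, 227.4 and 1.26 CPM in knockout IRI. Knockout IRI replicate 2 also had the highest adrenal sum, at 1397 CPM against 271.7 and 6.06 CPM in replicates 1 and 3. The part of neutrophil or adrenal RNA in the Hbegf values was not tested. In whole kidney, more cells of a type and more RNA per cell cannot be told apart.

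Areg was the gene with no count in any wild-type control library and counts in every IRI library. Its counts were 8, 4 and 74 in wild-type IRI replicates 1 to 3, and the level in replicate 3 was 1.58 CPM against 0.16 and 0.075 CPM. In knockout it had 2, 1 and 0 counts in control and 8, 15 and 13 after IRI, that is 0.12, 0.22 and 0.32 CPM. The IRI libraries lay above the control libraries in both genotypes without overlap, at levels where a few reads decide a value. Areg had 10 or more counts in 3 libraries, all of them IRI, and so passed the filter only through the groups where it is high. Over the pooled libraries of a group Areg was at least 30.7-fold higher in wild-type IRI than the limit of 3 counts allows in wild-type control (0.019 CPM), or at least 6.24-fold without replicate 3. The 95% exact counting interval of the same ratio, which also covers the error of the IRI counts, begins at 24.4. In knockout the ratio of pooled levels was 13.4 (95% counting interval 4.25 to 68.2). Both intervals cover counting error alone and leave out the spread between libraries, so that they do not test a difference between groups. Areg was called in wild type (edgeR adjusted p = 0.0221) and not in knockout (edgeR adjusted p = 0.180). Leaving out any single wild-type control library ended the wild-type call (edgeR adjusted p from 0.0539 to 0.0643), as did the Y-linked covariate (edgeR adjusted p = 0.211), within a range of 8.14e-05 to 0.211 over 22 settings. Without wild-type IRI replicate 3 the knockout difference passed (edgeR adjusted p = 0.0212).

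The start of Areg carries a cAMP response element and a TATA box, of which Epgn, in the window held for it, has the second and Btc neither. The promoter windows of the cluster held in RefSeq (GRCm38.p6, the assembly of mm10) are shown because Areg was called after IRI and the others are its neighbouring ligand genes. Each runs from 250 bases before to 50 after the RefSeq start, on the strand of the gene. They cover Epgn at chr5:91027267-91027566 (plus strand), Areg at chr5:91139349-91139648 (plus strand) and Btc at chr5:91402945-91403244 (minus strand). Capitals mark matches to TGACGTCA or TATAAA on either strand.
Epgn: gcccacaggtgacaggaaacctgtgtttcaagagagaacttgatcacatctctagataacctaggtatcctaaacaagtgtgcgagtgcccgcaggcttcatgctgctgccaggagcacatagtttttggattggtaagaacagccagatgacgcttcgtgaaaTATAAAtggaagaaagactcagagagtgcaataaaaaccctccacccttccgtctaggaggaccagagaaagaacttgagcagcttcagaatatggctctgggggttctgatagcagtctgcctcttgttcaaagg
Areg: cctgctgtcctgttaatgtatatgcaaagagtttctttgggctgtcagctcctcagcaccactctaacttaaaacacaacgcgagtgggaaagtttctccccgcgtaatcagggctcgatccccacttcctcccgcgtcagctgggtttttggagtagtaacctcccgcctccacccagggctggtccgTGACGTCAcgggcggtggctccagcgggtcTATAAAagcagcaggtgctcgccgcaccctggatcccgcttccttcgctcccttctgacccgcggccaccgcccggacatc
Btc: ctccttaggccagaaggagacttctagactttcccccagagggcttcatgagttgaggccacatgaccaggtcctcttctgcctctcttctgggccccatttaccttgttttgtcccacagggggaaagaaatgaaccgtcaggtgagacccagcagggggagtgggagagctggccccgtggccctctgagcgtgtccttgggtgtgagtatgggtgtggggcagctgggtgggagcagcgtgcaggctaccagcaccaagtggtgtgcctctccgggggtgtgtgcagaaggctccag
In Areg the full cAMP response element TGACGTCA began 61 bases and TATAAA 31 bases before the start. Epgn had TATAAA 86 bases before its RefSeq start, and Btc had neither motif. The RefSeq start of Epgn lies after the gene start given above (91027464), so that this distance depends on the start taken. Of 32851 promoter windows in the table, 1.79% held TGACGTCA and 13.6% held TATAAA. Neither TGANTCA, the AP-1 motif (7.81% of windows), nor the serum response element (CArG box, 1.63%) was found in any of the 7 windows held for the 10 genes, and the 2 other motifs were not found in those of Egfr, Erbb2, Erbb4 and Tgfa. The motifs share no bases with each other in these windows, were chosen after the expression values were known, and describe letters only.

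Ereg and Epgn, the other low ligands, gave no called difference. In wild type Ereg had 1, 2 and 6 counts in control replicates 1 to 3 and 11, 4 and 16 after IRI, and its ranges overlapped. In knockout it had 12, 2 and 2 counts in control and 10, 8 and 4 after IRI. The fitted log2 fold change was 1.86 (SE 0.81, edgeR adjusted p = 0.114) in wild type and 0.60 (SE 0.77, edgeR adjusted p = 0.715) in knockout. Of the settings for wild type, just the one leaving out IRI replicate 2 passed (edgeR adjusted p = 0.0439; 0.315 at the other end of the settings). Epgn had 3 counts in all in wild-type control, 8 in wild-type IRI, 1 in knockout control and 4 in knockout IRI, and a difference was not detectable at this depth.

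Tgfa and Btc, each near 10 CPM, were not called in either genotype. In wild type Tgfa was at 9.85, 9.56 and 8.79 CPM in control replicates 1 to 3 and at 14.2, 12.99 and 12.4 CPM after IRI, without overlap, as 21.2% of all tested genes were on the higher side. The log2 fold change was 0.49 (SE 0.22, edgeR adjusted p = 0.129) and passed only without knockout IRI replicate 2 (edgeR adjusted p = 0.0452, up to 0.503 over the settings). In knockout Tgfa was at 10.5, 7.29 and 8.67 CPM in control and at 9.58, 17.1 and 9.47 CPM after IRI, with replicate 2 alone above the controls (log2 fold change 0.45, SE 0.22, edgeR adjusted p = 0.255; 0.086 without replicate 2). Btc was at 7.35, 8.62 and 9.77 CPM in wild-type control and at 7.46, 8.48 and 3.34 CPM in wild-type IRI, where replicate 3 alone was low. It was at 9.01, 9.30 and 10.1 CPM in knockout control and at 11.8, 8.83 and 11.9 CPM in knockout IRI. Neither comparison of Btc passed (edgeR adjusted p = 0.292 in wild type and 0.755 in knockout).

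**Figure D2:**
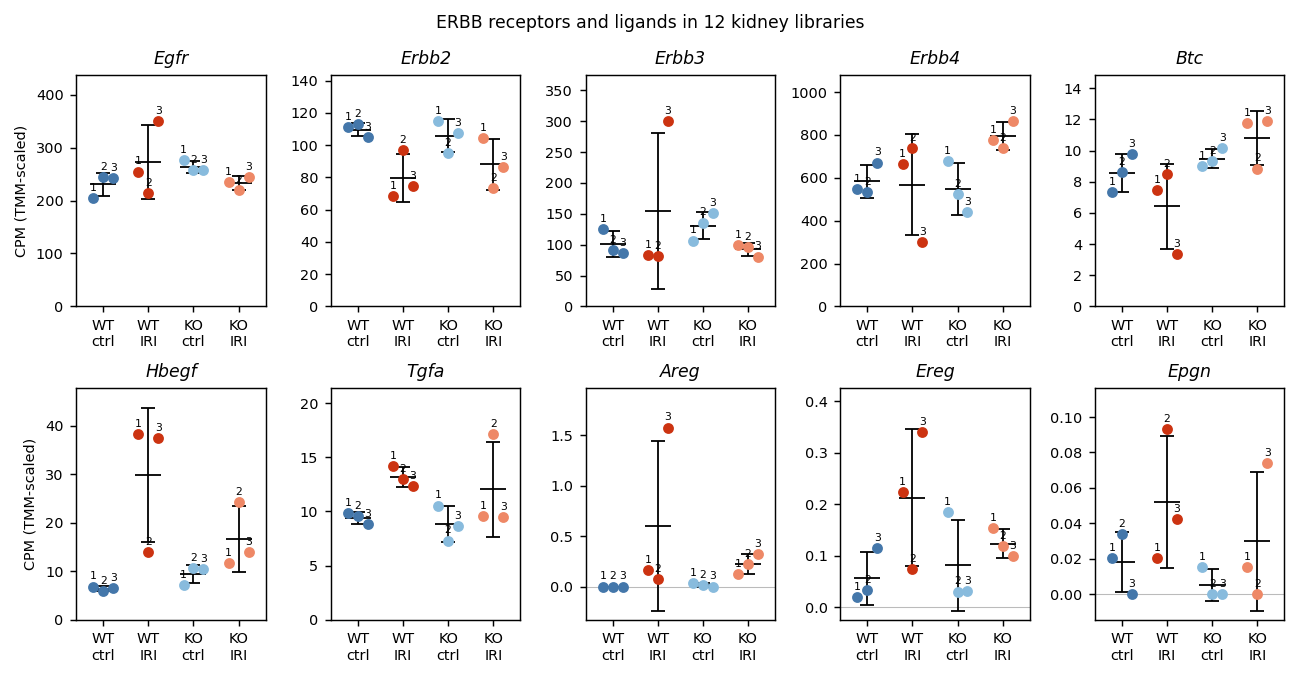
Each panel gives 1 gene in TMM-scaled CPM on a linear axis, with 1 numbered point per replicate (WT, wild type; KO, knockout; ctrl, control) and the mean ± SD of 3 libraries as a dash with bars. Hbegf lies above all controls in every IRI library, and WT IRI 3 stands alone in Erbb3 (300.6 CPM), Erbb4 (298.3 CPM), Btc (3.34 CPM) and Areg (1.58 CPM).

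No receptor was called in any single comparison of groups. Egfr, the receptor of all EGF-type ligands here, had wild-type levels of 204.9, 244.7 and 242.4 CPM in control replicates 1 to 3 and of 254.8, 213.7 and 350.7 CPM after IRI. Knockout kidneys were at 277.2, 258.3 and 257.4 CPM in control and at 235.4, 220.0 and 244.5 CPM after IRI. The knockout IRI libraries lay just below the knockout controls, on a side where 15% of all genes were without overlap, while the wild-type groups overlapped. The log2 fold changes were 0.24 (SE 0.16, edgeR adjusted p = 0.281) in wild type and -0.18 (SE 0.16, edgeR adjusted p = 0.567) in knockout, and the wild-type value was 0.022 without replicate 3.

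Erbb2, the receptor without a known ligand, was lower in all 3 wild-type IRI libraries than in the controls. It went from 111.1, 113.0 and 104.8 CPM to 68.2, 96.7 and 74.5 CPM, and 19.9% of all genes were lower without overlap in the same comparison. The log2 fold change was -0.46 (SE 0.16) and missed the threshold (edgeR adjusted p = 0.0547). It passed by DESeq2 (adjusted p = 0.0295), by limma-voom (adjusted p = 0.0487) and without wild-type IRI replicate 2, knockout IRI replicate 1 or knockout IRI replicate 2 (edgeR adjusted p = 0.00961, 0.0479 and 0.0465). The sixth passing setting left out both libraries of intermediate Y-linked level (edgeR adjusted p = 0.00576), and the highest value was 0.510. In knockout Erbb2 was at 115.0, 95.3 and 107.5 CPM in control and at 104.5, 73.2 and 86.2 CPM after IRI, with overlap (log2 fold change -0.27, SE 0.16, edgeR adjusted p = 0.343).

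Erbb3 and Erbb4, the receptors of neuregulins, were set apart by 1 library. Erbb3 was at 125.8, 91.1 and 86.7 CPM in wild-type control and at 82.8, 81.0 and 300.6 CPM in wild-type IRI, so that replicate 3 was 3.67 times the mean of replicates 1 and 2. Knockout libraries were at 106.7, 135.9 and 150.6 CPM in control and at 99.9, 96.5 and 80.6 CPM after IRI, all lower than the controls. Erbb4 was at 547.3, 533.1 and 670.6 CPM in wild-type control and at 665.6, 737.4 and 298.3 CPM in wild-type IRI, where replicate 3 was the lowest of all 12 libraries. Erbb4 in knockout was at 677.6, 523.5 and 438.9 CPM in control and at 775.0, 739.7 and 865.5 CPM after IRI, all higher than the controls. Over all genes 15% were lower and 21.2% higher without overlap in that comparison. None of the 4 fold changes passed (edgeR adjusted p from 0.294 to 0.927). Without wild-type IRI replicate 3 the wild-type log2 fold change of Erbb3 was -0.31 in place of 0.61, and that of Erbb4 0.26 in place of -0.042.

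Averaging the response over both genotypes, a comparison added after seeing the data, called 4 of the 9 genes where 29.9% of all genes were called (16.9% higher and 12.9% lower). Hbegf (1.52, SE 0.26, edgeR adjusted p = 0.00217) and Areg (edgeR adjusted p = 0.00858) were called higher in each of the 23 and 22 settings that tested them, with Areg tested only because of its IRI libraries. Tgfa was also higher (0.47, SE 0.16, edgeR adjusted p = 0.0433) and Erbb2 lower (-0.36, SE 0.11, edgeR adjusted p = 0.0292), but the Tgfa call held in only 11 and the Erbb2 call in 12 of 23 settings (edgeR adjusted p up to 0.214 and 0.127). Tgfa was at 0.28 without the libraries high in adrenal genes. Without wild-type IRI replicate 3, Erbb3 was called lower (-0.41, edgeR adjusted p = 0.0302) and Erbb4 higher (0.40, edgeR adjusted p = 0.0275). With that library they were at 0.054 (edgeR adjusted p = 0.908) and 0.25 (edgeR adjusted p = 0.374).

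**Figure D3:**
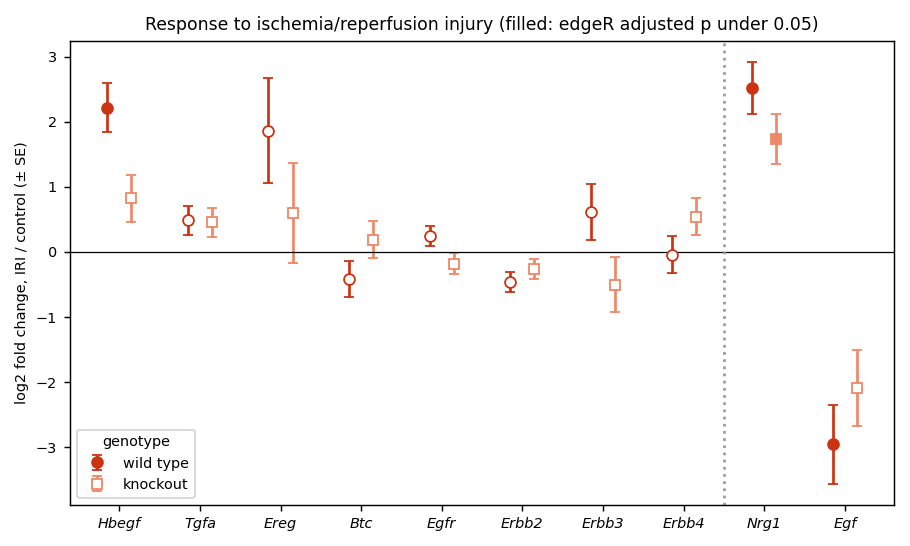
Points give the log2 fold change of IRI over control, with a standard error derived from the edgeR test statistic. Circles are wild type and squares knockout, filled where the adjusted p is under 0.05. Hbegf, at 2.21 in wild type, is the filled ligand left of the dotted line, Nrg1 and Egf to its right belong to the further ligands, and Areg is left out since its wild-type controls are at 0.

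Among the other ERBB ligands, Egf fell in wild-type IRI and the neuregulin gene Nrg1 rose in both genotypes. Egf, made in the distal nephron, was by far the most abundant ligand transcript of control kidneys, at 177.7 to 192.0 CPM per kb in wild type and 140.7 to 162.1 in knockout. After IRI it was at 6.59, 32.5 and 32.2 CPM per kb in wild type (log2 fold change -2.96, SE 0.60, edgeR adjusted p = 0.00905). In knockout it was at 50.2, 11.4 and 42.5 CPM per kb, below all controls, as 15% of all tested genes were. The log2 fold change of -2.10 did not pass (SE 0.58, edgeR adjusted p = 0.0571). The summed level of 6 thick ascending limb and distal tubule genes was also lower in wild-type IRI (1827 to 4269 CPM) than in wild-type control (5140 to 5886 CPM), whereas in knockout it ranged from 3913 to 4772 CPM in control and from 2599 to 3943 CPM after IRI, with overlap. Its part in the Egf values was not tested. Nrg1, a ligand of the Erbb3 and Erbb4 receptors, was at 17.6, 28.9 and 22.5 CPM in wild-type control and at 213.0, 81.0 and 102.3 CPM in wild-type IRI, an increase of 2.52 on the log2 scale (SE 0.40, edgeR adjusted p = 0.00356). Nrg1 in knockout was at 35.8, 31.8 and 38.5 CPM in control and at 70.6, 173.9 and 106.6 CPM after IRI, an increase of 1.73 (SE 0.39, edgeR adjusted p = 0.0278). Nrg2 fell in wild type (-1.03, SE 0.29, edgeR adjusted p = 0.0296), and Nrg3 and Nrg4 were not called. With the Y-linked covariate none of these wild-type calls held, and 1 of the 2 lower calls was lost on leaving out a wild-type control library, whichever it was, and also without replicate 1 or 3 of wild-type IRI. The knockout call of Nrg1 ended without any 1 of the knockout control libraries or knockout IRI replicate 2. No gene of this list was called lower in knockout by edgeR with all libraries. However, 1 was called lower there with DESeq2 and on leaving out replicate 1, 2 or 3 of wild-type IRI. Nrg3 was at 17.1 and 54.5 CPM in the 2 knockout IRI libraries high in adrenal genes and at 6.56 to 10.1 CPM in the other 10.

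Among genes for the release of ligands, both inactive rhomboid genes rose in wild-type IRI. Of 9 tested shedding genes 3 were called higher in wild-type IRI (13.1% of all genes) and none lower (9.41%), with a list median log2 fold change of 0.45. Rhbdf2 (1.60, SE 0.35, edgeR adjusted p = 0.0117) and Rhbdf1 (0.83, SE 0.19, edgeR adjusted p = 0.0134) encode the inactive rhomboid proteins that guide ADAM17 to the cell surface, and Frmd8 (0.55, SE 0.18, edgeR adjusted p = 0.0483) encodes their partner. The metalloproteinase genes of the list were not called. Timp3, an inhibitor of ADAM17, had no count in any library and so did not pass the filter. Why it had none was not tested. In knockout IRI none of the 9 was called by edgeR, DESeq2 or limma-voom, where edgeR called 3.9% of all genes higher and 2.42% lower. However, 2 were called without wild-type IRI replicates 2 or 3 and 1 was in a fit of just the compared groups. Rhbdf1, Rhbdf2 and Frmd8 also lay above the controls in knockout IRI without overlap, as did 21.2% of all tested genes. Rhbdf2 went from 3.04 to 3.67 CPM per kb in knockout control to 5.11 to 8.55 in knockout IRI. The wild-type count of 3 was 0 with the Y-linked covariate and 0 in a fit of just the compared groups, 1 without wild-type control replicate 2, 4 without wild-type IRI replicate 2 and 2 without any other single library. It was also 2 with RLE scaling, limma-voom, no filter or a block for the replicate number, and without the genes Rn7s1 and Rn7s2. With DESeq2 it was 4.

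Feedback inhibitors of the pathway rose in part. Of 18 genes 6 were called higher (13.1% of all genes) and none lower (9.41%) in wild-type IRI, with a median of 0.40. Dusp5 (4.16, SE 0.63, edgeR adjusted p = 0.00312) and Dusp4 (1.46, SE 0.29, edgeR adjusted p = 0.00841) encode phosphatases that switch ERK off, and Spry2 (0.88, SE 0.19, edgeR adjusted p = 0.0106) encodes a Sprouty inhibitor of RAS-ERK signalling. Dusp5 was at 1.91, 1.91 and 1.66 CPM in wild-type control and 30.2, 9.17 and 58.6 CPM in wild-type IRI, and it was the 1 gene of the list called in knockout (3.06, SE 0.60, edgeR adjusted p = 0.0171). Over all genes 3.9% were called higher in knockout and 2.42% lower. In both genotypes the IRI libraries of Dusp5, Dusp4 and Spry2 lay above the controls. Over all tested genes 21.2% did so in wild type and 21.2% in knockout. The count of 6 in wild type was 12 without wild-type IRI replicate 2 and 0 with the Y-linked covariate. It was 3 with just the compared groups or on leaving out a wild-type control library, whichever it was, replicate 1 or 3 of wild-type IRI, or replicate 2 or 3 of knockout control. The knockout count of 1 was 0 with limma-voom and without knockout control replicate 2 or 3 or knockout IRI replicate 2. In no setting was it above 2, the count with DESeq2.

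Of 28 adaptor and kinase cascade genes 5 were called higher (13.1% of all genes) and 1 lower (9.41%) in wild-type IRI (median 0.20), near the background. Nras (0.95, SE 0.20, edgeR adjusted p = 0.0105), a RAS gene, and the adaptor gene Shc1 (0.77, SE 0.16, edgeR adjusted p = 0.0108) rose. Grb7, an adaptor of Erbb2 whose gene is its close neighbour, fell in wild type (-0.77, SE 0.16, edgeR adjusted p = 0.00929) and in knockout (-0.76, SE 0.16, edgeR adjusted p = 0.0208). Akt1 rose in knockout as well (0.49, SE 0.11, edgeR adjusted p = 0.0289). Thus in knockout 1 of the 28 genes was called higher (3.9% of all genes) and 1 lower (2.42%). The wild-type counts were 11 higher and 2 lower without wild-type IRI replicate 2, 4 and 3 without replicate 3, 2 and 1 without wild-type control replicates 2 or 3, 0 and 1 with just the compared groups, and 0 with the Y-linked covariate. Neither knockout call held without knockout control replicates 2 or 3 or knockout IRI replicates 2 or 3. Of 12 target genes of ERK signalling 8 were called higher in wild type (13.1% of all genes) and 4 in knockout (3.9%), and none lower (9.41% and 2.42%), with medians of 1.72 and 1.30. Fosl1 (4.03), Plaur (3.92) and Myc (3.41) had the highest log2 fold changes in wild type, with edgeR adjusted p from 0.00245 to 0.00467. In knockout Myc (2.64), Plaur (2.52) and Fosl1 (2.49) were called (edgeR adjusted p from 0.0147 to 0.0479), with Etv4 (2.08, SE 0.28, edgeR adjusted p = 0.00462) as the fourth gene. Many of these targets also answer to other signals. Over the alternative settings the count of 8 ran from 2, with the Y-linked covariate, to 10, and was 5 with just the compared groups and without replicate 2 or 3 of the wild-type controls and without replicate 3 of wild-type IRI. The count of 4 was 0 without the libraries high in adrenal genes, 1 without knockout control replicates 2 or 3 or knockout IRI replicate 2, 7 without wild-type IRI replicate 2 and 8 without wild-type IRI replicate 3.

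**Figure D4:**
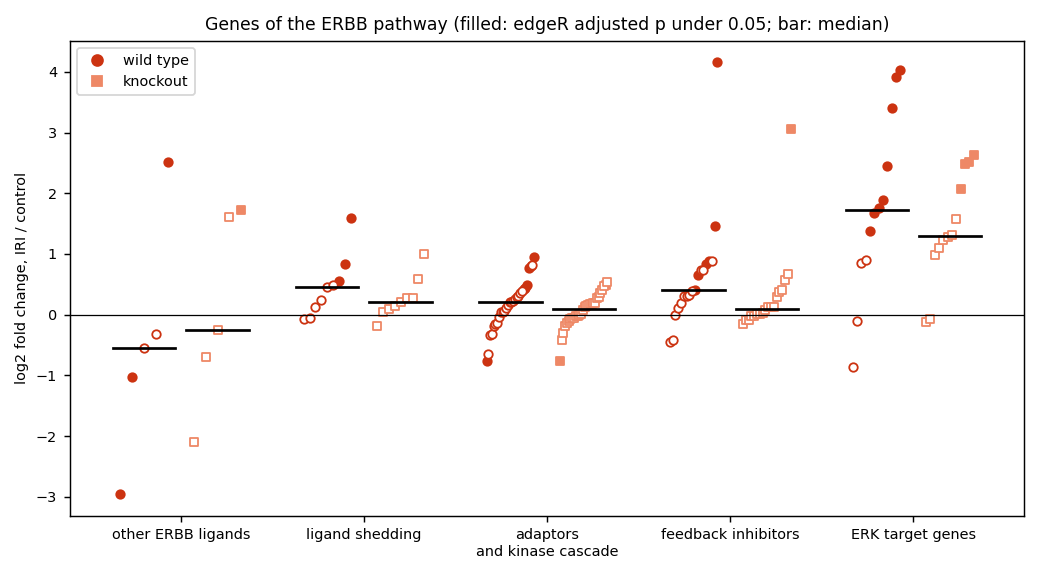
Each point is 1 tested gene of 5 pathway lists, with the log2 fold change of IRI over control in wild type (circles) and knockout (squares), filled where the edgeR adjusted p is under 0.05, and bars at the list medians. The ERK target genes have the highest medians (1.72 and 1.30), and the adaptor genes lie close to 0.

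The Ybx3 deletion gave no call among the 9 genes. In control kidneys edgeR, DESeq2 and limma-voom called 0 of 9, and none had an unadjusted p under 0.05 (0.0104% of all genes were called, 0.0052% in each direction). Hbegf and Egfr were higher without overlap in knockout control than in wild-type control, as were 6.34% of all genes, with log2 differences of 0.55 (SE 0.37) and 0.20 (SE 0.16) and an edgeR adjusted p of 0.999 each. The knockout control libraries highest in Hbegf, replicates 2 and 3, were those with Y-linked transcripts. Replicate 1, without them, was at 7.21 CPM, against at most 6.82 CPM in wild-type control.

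After IRI edgeR, DESeq2 and limma-voom again called 0 of 9 between genotypes, where 0.0104% of all genes were called (0.0052% higher and 0.0052% lower). At an unadjusted p under 0.05 there were 2, where 11.5% of all genes had such a p. These were Hbegf, with a log2 difference of -0.84 for knockout against wild type (SE 0.36, edgeR adjusted p = 0.432), and Btc, at 0.75 (SE 0.28, edgeR adjusted p = 0.422). Hbegf was called lower in knockout in a single setting, the one leaving out replicate 2 of wild-type IRI (-1.18, edgeR adjusted p = 0.0462; up to 0.915 over the settings). Btc and Erbb4 were higher in knockout IRI without overlap, as were 6.28% of all genes, and the Btc difference was 0.44 without wild-type IRI replicate 3. The test of the difference in response between genotypes, which shares all 4 groups with the comparisons above, called 0 of 9 by edgeR, DESeq2 and limma-voom, and 0% of all genes by edgeR. Hbegf was the 1 gene of the 9 at an unadjusted p under 0.05, as were 7.02% of all genes. Its log2 interaction was -1.39 (SE 0.52, edgeR adjusted p = 0.666). A response of Hbegf that was called in wild type and not in knockout was therefore not shown to differ between them.

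The ligand cluster of chromosome 5 lies beside a cluster of chemokine genes, which were in part also higher after IRI. From 500 kb before Epgn to 500 kb after Btc the annotation holds 16 protein-coding genes, of which 13 were tested. In wild type 6 of the 13 were called higher (13.1% of all genes) and 2 lower (9.41%), and in knockout 2 were called higher (3.9%) and none lower (2.42%). Of the 6, Areg, Cxcl2, Cxcl3 and Cxcl5 had at most 6 counts in all in either control group and passed the filter only through IRI libraries, so that their direction was largely set by the filter. Cxcl1, a neutrophil-attracting chemokine gene, went from a mean of 0.22 to 35.1 CPM in wild type and from 0.24 to 13.1 CPM in knockout (edgeR adjusted p = 0.0023 and 0.00849). Cxcl5, a related chemokine gene, had 3 counts in all in wild-type control and 210 in wild-type IRI, and Cxcl2 had 3 and 1179. Those called lower were Afm (-1.99, SE 0.57, edgeR adjusted p = 0.0318), which encodes the plasma protein afamin, and 5830473C10Rik (-2.57, SE 0.74, edgeR adjusted p = 0.0325). Mthfd2l, which separates the chemokine genes from Epgn, was not called (0.63, SE 0.23, edgeR adjusted p = 0.0707), nor were Ereg and Btc.

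**Figure D5:**
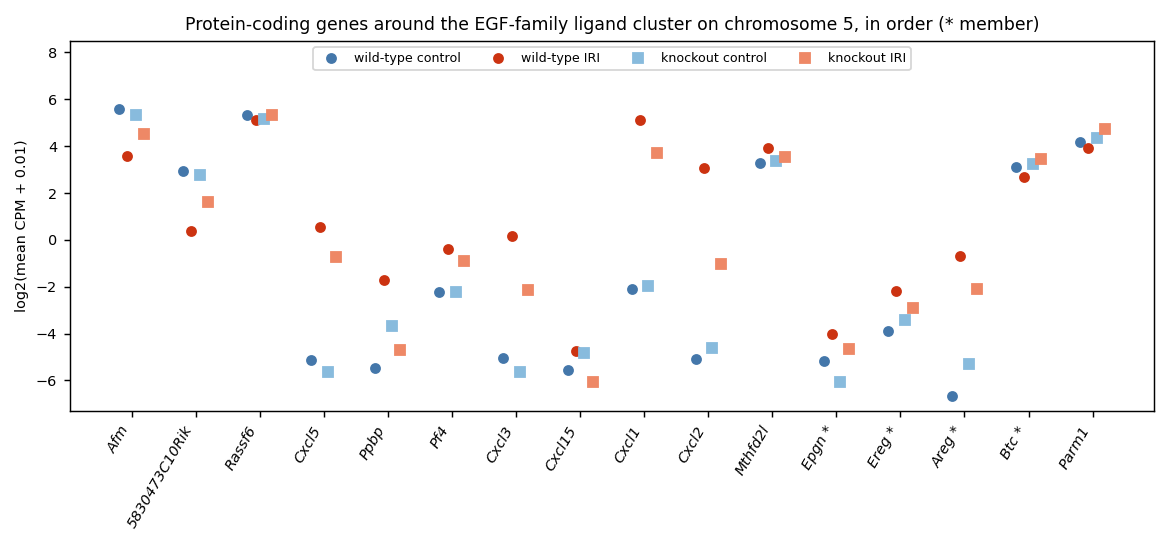
Points give the mean of 3 libraries per group as log2(CPM + 0.01) for the 16 protein-coding genes around the ligand cluster, in their order on chromosome 5 and not to scale, with the 4 ligand genes starred. Cxcl1, Cxcl2, Cxcl3, Cxcl5 and Areg lie higher in the IRI groups, and Afm and 5830473C10Rik at the left end lie lower. Btc, Rassf6 and Parm1 stay close together.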

How the data were processed

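The deposited values are raw counts, whole numbers for each gene and each of the 12 kidney libraries, without normalization by the authors. The libraries mark the strand, were made after removal of ribosomal RNA and were sequenced from both ends, per the labels' protocols. STAR and mm10 are named in the submitters' processing notes. No version, counting tool, annotation or strand setting is stated there. Columns were matched to the sample titles, and all 12 were used.

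Counts were tested with edgeR 4.0.16 (R 4.3.3), after filterByExpr (minimum count 10, minimum total 15) and TMM scaling, in 1 quasi-likelihood fit of all libraries with a coefficient per group. P-values were two-sided and adjusted by Benjamini-Hochberg over 19218 genes, and a gene was called under 0.05. Each SE is the absolute log2 fold change divided by the square root of the F statistic of its edgeR test. Gene lengths and positions are from GENCODE M21 (mm10). Promoter sequences are from RefSeq (GRCm38.p6), where 7 of the 10 genes matched. Counting intervals are exact at 95%, and they and the limit of 3 counts for a count of 0 cover counting error only. Replicates of a group differed by more than sampling noise, so none was merged for the tests. The fitting script was tested on simulated data.

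Alternatives were RLE scaling, library sizes alone, leaving out Rn7s1 and Rn7s2, DESeq2 1.42.0, limma-voom (limma 3.58.1), other filters, a fit of just the compared groups, a block for the replicate number, a Y-linked covariate, and leaving out libraries. The genes, lists and alternatives were chosen with earlier results of these data known. The text names the 10 genes, Egf, Ybx3, Havcr1 and Lcn2, up to 3 called genes per direction and comparison of each pathway list with the largest log2 fold change, the 2 nearest patterns of each tested gene (the second of Hbegf and of Erbb2 is not reported here), and up to 4 called genes per direction around the chromosome 5 cluster. Etv4, Nrg3, Nrg4, Timp3, Mthfd2l, Rassf6, Parm1 and Cxcl3 were named after their values were seen.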

Additional observations from a re-analysis of the deposited data

How the results depend on the processing

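The count of 2 called genes after IRI in wild type was 1 with a filter of 1 CPM in 3 libraries and with only the groups compared, both of which leave Areg out of the genes tested, and 0 with the Y-linked covariate. Leaving out 1 library at a time gave 1 to 4, with 1 without any wild-type control library and 4 without wild-type IRI replicate 2 or knockout IRI replicate 2. In knockout the count of 0 was 1 without both libraries with intermediate Y-linked sums (Hbegf) and 0 to 1 over the libraries left out (1 without wild-type IRI replicate 3, Areg). Between genotypes after IRI it was 0 to 1 (1 without wild-type IRI replicate 2, Hbegf), and between control kidneys and for the interaction 0 in every setting. The 4 calls of the mean over both genotypes fell to 2 with library sizes alone, the replicate block, the Y-linked covariate and without the adrenal libraries, and were 2 to 6 over the libraries left out (6 without wild-type IRI replicate 3; 2 without wild-type control replicates 1 or 2, wild-type IRI replicate 1, knockout control replicate 3 or knockout IRI replicate 2). The cause was not tested.

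Erbb3 reversed in the mean of both genotypes without wild-type IRI replicate 3, from 0.054 to -0.41, the lowest of a leave-one-out range that reached 0.21. Of 1257 refitted values of single genes, 36 changed sign, 35 of them not called on either side, 28 lost and 13 gained a call. The replicate numbers did not pair the samples: same-numbered libraries of compared groups had correlations of deviations from -0.40 to 0.074, and 2 of 12 matched best with their own number. The replicate block left 2 calls in wild type, 0 in knockout and 2 of 4 in the mean. Counts of a few reads limit Areg, Ereg and Epgn. With a prior count of 2 the 2 nearest patterns of Areg were both others (0 shared), and 1 of 2 was shared for Ereg.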

Other observations

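The genes whose profile over the 12 libraries lay closest to each of the 9 tested genes were sought among 13506 further protein-coding genes of at least 1 CPM on average. The distance is the root mean square of the difference between centred log2 CPM profiles. Hbegf lay closest to Pgd, an enzyme gene of the pentose phosphate pathway (distance 0.20 log2 units, against an SD of 0.94 of Hbegf itself). Erbb3 lay closest to Wipi1, an autophagy gene (0.13), and Ccng2, which encodes cyclin G2 (0.18), with an SD of its own of 0.54. Erbb4 (SD 0.42) lay closest to Mmp28 (0.12) and Kank3 (0.13). Btc (SD 0.47) lay closest to Zpbp (0.16) and Cntrob (0.16). Erbb2 (SD 0.26) lay closest to Ptch1, the Hedgehog receptor gene (0.092). Egfr (SD 0.20) lay closest to Gramd3 (0.073) and Aig1 (0.073), and Tgfa (SD 0.35) to Mpzl3 (0.15) and Hdac7 (0.15). Areg, at a distance of 0.85 and 0.88 from Lrg1 and Fga, and Ereg, at 0.58 and 0.60 from Nrcam and Sema7a, varied more themselves (SD 2.49 and 1.15). These distances describe 12 libraries that share their groups.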
